A study of Mus musculus with 7 samples.

Results

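The transcripts described here encode enzymes that make nicotinamide adenine dinucleotide (NAD) by salvage and enzymes that consume it: Nampt, Nmrk1, the sirtuins Sirt1, Sirt2, Sirt3, Sirt5, Sirt6 and Sirt7, Parp1 and Cd38. They were taken as the rows of the deposited expression table that carry these symbols, 10 of 54309 genes, each present as a single row. Levels were measured by RNA sequencing in neuron-enriched cells of lumbar dorsal root ganglia, which hold the cell bodies of sensory neurons. All animals were labelled male C57bl/6 mice aged 6 to 8 weeks. All had a sciatic nerve injury and their ganglia were taken 72 h later, at Zeitgeber time (ZT, hours from lights on) 20 in 4 samples and at ZT8 in 3 samples. No uninjured samples are analysed here, so the levels are those of injured ganglia at a pair of clock times. The ganglia were digested with dispase, collagenase and papain and the cells enriched for neurons on an albumin gradient, so the values are those of dissociated cells and not of intact ganglia. How many animals made up a library is not given in the sources used here, and the p-values measure the spread between these samples, which may in part be technical.

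NAD carries electrons in metabolism and is also split by enzymes that release nicotinamide. NAMPT, the rate-limiting salvage enzyme, turns nicotinamide into nicotinamide mononucleotide, NMRK kinases make the same intermediate from nicotinamide riboside, and NMNAT enzymes complete NAD. Sirtuins use NAD to remove acetyl and other acyl groups from proteins, PARP1 builds ADP-ribose chains at broken DNA, and CD38 and SARM1 hydrolyse NAD. In other tissues Nampt is a known output of the circadian clock, and SIRT1 acts back on clock proteins. In sensory axons the balance of NMNAT2 against SARM1 is known for setting whether a cut axon survives.

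Values are TPM, an abundance unit in which reads are divided by transcript length and every sample has the same sum, so levels of different genes can be compared per length. Read depth is unknown, because TPM does not keep it. The number of genes above 0 TPM was 24192 to 25238 at ZT20 and 22541, 18297 and 22973 in ZT8 replicates 1 to 3. Neuronal markers, with 2 of 10 genes called higher at ZT20, summed to 18048 to 21730 TPM at ZT20 and 14083 to 20024 TPM at ZT8, and none of them was at 0 in all samples. Satellite glia markers, with 2 of 6 genes called lower at ZT20, summed to 6960 to 8434 TPM at ZT20 and 11757 to 14452 TPM at ZT8. Apoe made up 88.7% to 93.8% of that sum in each sample. Without Apoe the sum was 699.1 to 819.6 TPM at ZT20 and 894.6 to 1134.2 TPM at ZT8. The ranges still did not overlap. The single genes did not all go this way. Fabp7 was called lower, and Glul was at -0.42 on the log2 scale (limma adjusted p = 0.193). Kcnj10 and Cdh19 were at 0.21 and 0.38 (limma adjusted p = 0.596 and 0.283). Cadm2 was at 2.79 to 4.55 TPM at ZT20 and 0.333 to 2.20 TPM at ZT8. It lay higher in every ZT20 sample but was not called (limma adjusted p = 0.0882). B and plasma cell markers (1 of 4 tested genes called lower) summed to 11.6 to 192.9 TPM and 219.6 to 616.2 TPM. With a neuronal minus non-neuronal marker score in the fit, 0 of the 9 tested members and 36 of 14800 genes passed by limma, and 2 members and 2538 genes had an unadjusted p under 0.05. For the 4 called members the sizes moved little and the errors grew: Sirt5 was then at 0.90 ± 0.33, Sirt6 at 1.43 ± 0.68, Parp1 at 0.60 ± 0.25 and Sirt7 at -0.46 ± 0.26 (log2 difference, SE), beside 1.03 ± 0.21, 1.55 ± 0.42, 0.57 ± 0.15 and -0.55 ± 0.16 without the score. Among the uncalled members, Nampt went from 0.034 without the score to 0.34 with it, and Nmrk1 from -0.24 to -0.015. Sirt2, Sirt3 and Cd38 were at 0.22, -0.38 and 0.11 with it, beside 0.28, -0.35 and 0.12. In bulk samples fewer cells of a type and less RNA per cell cannot be told apart. ZT20 replicates 3 and 4 went against the label male: Ddx3y, Eif2s3y and Uty were listed at 0 there, and Xist was at 2.21 and 2.30 TPM. ZT20 replicate 2 held Xist at 1.08 TPM beside Y-linked transcripts. The labels name no batch. The library identifiers in the sample descriptions begin with numbers at ZT20 and letters at ZT8, what they stand for is not given, and a difference they may mark cannot be told apart from the clock time.

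Of the 10 genes, 9 reached the mean of 1 TPM required for testing. Sirt5, Sirt6 and Parp1 were higher at ZT20 and Sirt7 was lower, by limma on log2(TPM + 1) with Benjamini-Hochberg adjustment over 14800 genes and a threshold of 0.05. Nampt, Nmrk1, Sirt2, Sirt3 and Cd38 did not pass, and Sirt1 was below the filter. In the same fit 12.8% of all tested genes were called higher and 3.61% lower, 16.4% in all. The groups did not overlap in 6 of the 9 tested members, against 33.2% of all tested genes. The median log2 difference of the 9 was 0.12, and that of all tested genes was 0.23, so a difference of 0.23 is where the middle of the transcriptome lay on this scale. Relative to that median, the differences of Sirt6, Sirt5 and Parp1 were 1.32, 0.80 and 0.34, and that of Sirt7 was -0.79. The plot of the 9 differences shows the 3 positive and the 1 negative call, with Sirt2 close to the middle of all genes. That split depended on the scaling: median-ratio scaling gave 1 higher (Sirt5) and 2 lower (Sirt3 and Sirt7), and quantile normalization 2 higher (Sirt5 and Parp1) and 0 lower.

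**Figure D1:**
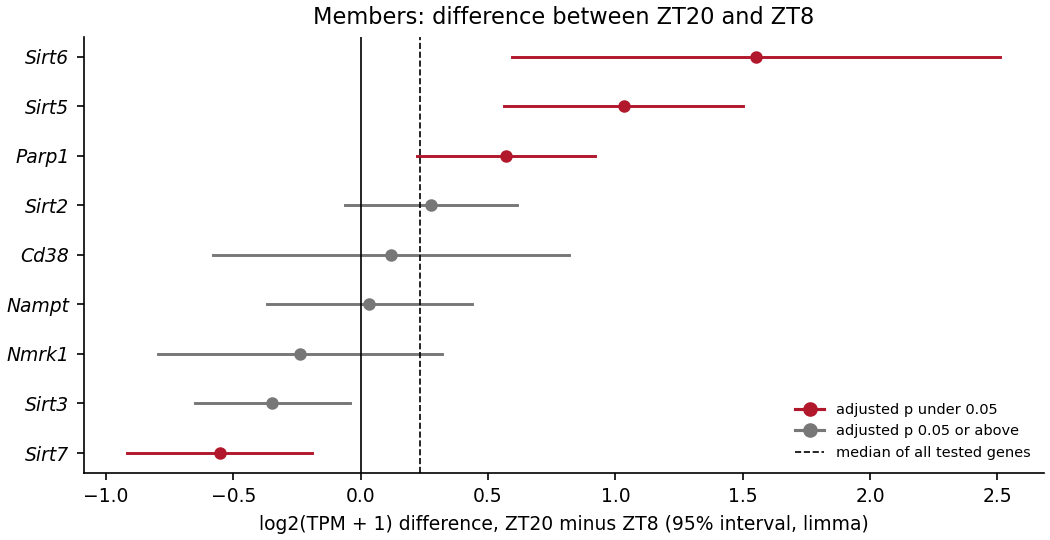
Difference in log2(TPM + 1), ZT20 minus ZT8, of the 9 tested members, with 95% intervals from limma. Points in red passed an adjusted p-value of 0.05; the dashed line is the median of all tested genes at 0.23, and the intervals of Sirt6, Sirt5, Sirt7 and Sirt3 lie clear of it, although Sirt3 did not pass.

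Because the comparison is between clock times, the RefSeq promoters of the members (GRCm38.p6, 250 bases before to 50 after the start, all 10 genes matched) were searched for CACGTG, the E-box bound by CLOCK and BMAL1, and AGGTCA, the core letters of the element bound by ROR and REV-ERB factors, each on both strands. The 2 motifs share no overlapping match in these windows. CACGTG was found in Sirt1 and Parp1, and AGGTCA in Nampt and Sirt5. Among the promoters of 27025 genes, the first listed for each, 7.24% held CACGTG and 16.0% held AGGTCA. The members were searched in 12 windows, since Sirt3 and Sirt6 have 2 each, but neither motif was found in any window of those 2 genes. The 4 windows with a match are shown because they include 2 of the 4 called members, Parp1 and Sirt5, and the 2 members best known for ties to the clock. Capitals mark the matches, and TGACCT is AGGTCA read on the other strand. A match describes the letters only.
Parp1 (chr1:180568641-180568940, + strand): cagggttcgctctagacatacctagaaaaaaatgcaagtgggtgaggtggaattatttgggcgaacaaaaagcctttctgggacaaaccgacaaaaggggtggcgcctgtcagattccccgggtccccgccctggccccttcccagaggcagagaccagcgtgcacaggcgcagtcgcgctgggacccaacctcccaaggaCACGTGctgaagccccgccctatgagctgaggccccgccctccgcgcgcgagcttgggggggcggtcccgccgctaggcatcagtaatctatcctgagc
Sirt5 (chr13:43365285-43365584, + strand): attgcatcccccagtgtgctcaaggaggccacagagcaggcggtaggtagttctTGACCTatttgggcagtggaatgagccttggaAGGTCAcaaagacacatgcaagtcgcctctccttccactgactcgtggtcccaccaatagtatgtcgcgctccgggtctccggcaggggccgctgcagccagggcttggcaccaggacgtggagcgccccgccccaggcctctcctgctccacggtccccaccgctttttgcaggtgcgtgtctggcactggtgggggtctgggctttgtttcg
Sirt1 (chr10:63338986-63339285, - strand): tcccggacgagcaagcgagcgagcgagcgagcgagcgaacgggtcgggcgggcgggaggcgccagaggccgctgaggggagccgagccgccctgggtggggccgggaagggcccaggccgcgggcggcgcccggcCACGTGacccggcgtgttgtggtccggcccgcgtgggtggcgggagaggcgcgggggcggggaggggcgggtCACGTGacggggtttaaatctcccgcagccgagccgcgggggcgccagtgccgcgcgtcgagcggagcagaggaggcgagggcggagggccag
Nampt (chr12:32820085-32820384, + strand): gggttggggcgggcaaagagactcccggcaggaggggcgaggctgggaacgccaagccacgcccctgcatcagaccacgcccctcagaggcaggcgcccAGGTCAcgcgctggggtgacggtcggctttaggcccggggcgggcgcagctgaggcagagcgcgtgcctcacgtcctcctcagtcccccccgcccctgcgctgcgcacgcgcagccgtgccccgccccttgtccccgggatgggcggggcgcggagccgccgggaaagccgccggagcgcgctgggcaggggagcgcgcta
The match in Parp1 began 49 bases before the start and those in Sirt1 115 and 43 bases before it. Those in Sirt5 began 196 and 164 bases before the start and that in Nampt 151 bases before it.

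Among the enzymes that make NAD, Nampt was at a middling level, at the 54.3 percentile of tested genes. Its values, given here and below in the order of the replicate numbers, were 14.4, 15.5, 16.6 and 16.2 TPM at ZT20 and 19.2, 14.3 and 12.8 TPM at ZT8. The highest and the lowest value both lay at ZT8, so the ZT20 range fell inside that of ZT8. The means were 15.7 ± 0.958 TPM (SD over n = 4) and 15.5 ± 3.33 TPM (SD over n = 3), and the log2 difference of 0.034 had a 95% interval from -0.37 to 0.44 (limma adjusted p = 0.908). Its sign turned under median-ratio scaling (-0.20) and quantile normalization (-0.24), so no direction can be given for Nampt.

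Nmrk1, the kinase of the nicotinamide riboside route, was at 16.4, 17.2, 19.8 and 18.8 TPM at ZT20 and 18.9, 33.1 and 15.6 TPM at ZT8. ZT8 replicate 2 stood above all other samples, and the groups overlapped. The log2 difference was -0.24 ± 0.24 (SE, limma adjusted p = 0.514). Without ZT8 replicate 2 it was 0.065 (limma adjusted p = 0.785). Its muscle-enriched relative Nmrk2 was barely detected, with values from 0 to 0.500 TPM.

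The other enzymes of NAD synthesis and its precursors were read from fixed lists: 2 of 6 tested genes of the salvage and Preiss-Handler list passed, both higher at ZT20 (12.8% of all tested genes were called higher), and 0 of 2 tested genes of synthesis from tryptophan passed by limma, with 0 at an unadjusted p under 0.05. Nmnat2, the short-lived NMNAT of axons, was at 48.2, 37.4, 52.8 and 54.2 TPM at ZT20 and 32.1, 27.2 and 31.5 TPM at ZT8. The groups did not overlap, and Nmnat2 was higher at ZT20 by 0.64 ± 0.16 on the log2 scale (SE, limma adjusted p = 0.0321). Nt5e, the cell-surface nucleotidase CD73, was at 25.4, 20.2, 32.3 and 29.3 TPM at ZT20 and 19.4, 14.7 and 14.5 TPM at ZT8. Again no ZT8 sample reached the ZT20 range, and the log2 difference was 0.69 ± 0.20 (SE, limma adjusted p = 0.0484).

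The other NMNAT genes were not called. Nuclear Nmnat1 was at 12.4 ± 1.37 TPM (SD over n = 4) at ZT20 and 15.2 ± 0.630 TPM (SD over n = 3) at ZT8, a log2 difference of -0.28 that did not pass (limma adjusted p = 0.253) but was -0.57 and passed under quantile normalization (limma adjusted p = 0.0469). The difference between Nmnat2 and Nmnat1 was not tested. Mitochondrial Nmnat3 was below the filter, at 0.265 to 0.858 TPM at ZT20 and 0.930 to 2.19 TPM at ZT8. Nadsyn1, NAD synthetase, had a log2 difference of 1.03 ± 0.34 (SE) and did not pass (limma adjusted p = 0.0727), and it was listed at 0 in ZT8 replicate 2. Naprt, the entry of nicotinic acid, differed by -0.045 (limma adjusted p = 0.923). The call of Nmnat2 was lost without ZT20 replicate 1, 3 or 4 or without ZT8 replicate 1 or 3, with limma adjusted p-values of 0.05 to 0.104. That of Nt5e was lost without ZT20 replicate 1, 3 or 4 or without ZT8 replicate 2 or 3, with limma adjusted p-values of 0.0762 to 0.141. Both calls were also lost with no filter on low values and under both other scalings: Nmnat2 was at 0.40 under median-ratio scaling and 0.47 under quantile normalization (limma adjusted p = 0.081 and 0.0614), and Nt5e at 0.45 and 0.43 (limma adjusted p = 0.109 and 0.126). A pseudocount of 0.1 TPM kept the call of Nmnat2 and lost that of Nt5e (limma adjusted p = 0.0509).

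The nuclear sirtuins did not move together. Sirt6, which acts on histones in DNA repair and in the control of glycolytic genes, was at 16.9, 13.2, 13.1 and 13.7 TPM at ZT20 and 7.47, 1.27 and 6.22 TPM at ZT8. The lowest ZT20 sample lay above the highest ZT8 sample, and ZT8 replicate 2 was far below the other ZT8 samples. The means were 14.2 ± 1.80 TPM (SD over n = 4) and 4.98 ± 3.28 TPM (SD over n = 3), and the log2 difference was 1.55 ± 0.42 (SE, limma adjusted p = 0.0392). Without ZT8 replicate 2 the difference was 0.96 and passed (limma adjusted p = 0.0101). The call was lost without any single ZT20 sample (limma adjusted p from 0.0716 to 0.0962) and without ZT8 replicate 3 (limma adjusted p = 0.0521), at differences of 1.47 to 1.79. It was lost as well under median-ratio scaling (1.35, limma adjusted p = 0.0572), quantile normalization (1.19, limma adjusted p = 0.0773), a pseudocount of 0.1 TPM (1.83, limma adjusted p = 0.0558) and no filter on low values (1.55, limma adjusted p = 0.104). Without ZT20 replicates 3 and 4 the difference of Sirt6 was 1.63 (limma adjusted p = 0.253).

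Sirt7, the nucleolar sirtuin linked to ribosomal RNA transcription, went the other way. It was at 60.4, 64.5, 47.6 and 48.7 TPM at ZT20 and 79.7, 93.2 and 71.4 TPM at ZT8. No ZT20 sample reached the lowest ZT8 sample. The means were 55.3 ± 8.42 TPM (SD over n = 4) and 81.4 ± 11.01 TPM (SD over n = 3), with a log2 difference of -0.55 ± 0.16 (SE, limma adjusted p = 0.0468). The call was lost without ZT20 replicate 1, 3 or 4 or without any single ZT8 sample (limma adjusted p from 0.0562 to 0.134), at differences of -0.64 to -0.45. It held under median-ratio scaling (-0.80, limma adjusted p = 0.0271) and was lost under quantile normalization, a pseudocount of 0.1 TPM and no filter (limma adjusted p = 0.0542, 0.0504 and 0.0908). Without ZT20 replicates 3 and 4 the difference of Sirt7 was -0.37 (limma adjusted p = 0.382), and those 2 libraries held the lowest Sirt7 values. An exon of Sirt7 overlaps Mafg on the same strand in GENCODE M21, so the assignment of its reads is uncertain.

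Sirt1, the best-studied deacetylase of the family, lay below the filter on low values and was not tested. It was at 0.954, 1.65, 1.19 and 1.03 TPM at ZT20 and 0.686, 0.0494 and 0.774 TPM at ZT8. All ZT20 values lay above all ZT8 values. With no filter on low values, Sirt1 had a log2 difference of 0.58 ± 0.26 (SE) and did not pass over 31897 genes (limma adjusted p = 0.27). Its exons overlap an antisense transcript, Gm16145, in GENCODE M21, and counting by strand is not given in the sources used here.

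Sirt2, the mainly cytosolic tubulin deacetylase, was the most abundant member and lay at the 92.6 percentile of all tested genes. It was at 198.3, 188.3, 185.0 and 204.1 TPM at ZT20 and 181.3, 125.2 and 179.9 TPM at ZT8. The groups did not overlap, but ZT20 replicate 3 and ZT8 replicate 1 were next to each other, and ZT8 replicate 2 stood apart. The log2 difference was 0.28 ± 0.15 (SE, limma adjusted p = 0.219), 0.10 without ZT8 replicate 2 (limma adjusted p = 0.475) and 0.027 under median-ratio scaling (limma adjusted p = 0.903). Exons of Sirt2 overlap Nfkbib on the opposite strand.

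Of the mitochondrial sirtuins, Sirt5 passed the test and Sirt3 did not. Sirt5, which removes succinyl, malonyl and glutaryl groups, was at 30.0, 35.0, 34.4 and 33.8 TPM at ZT20 and 16.3, 11.2 and 21.2 TPM at ZT8. The ZT20 samples were tightly grouped and all lay above ZT8. The means were 33.3 ± 2.22 TPM (SD over n = 4) and 16.2 ± 4.97 TPM (SD over n = 3), a 2.05-fold ratio of means and a log2 difference of 1.03 ± 0.21 (SE, limma adjusted p = 0.0153). This was the smallest adjusted p among the members. The call of Sirt5 held under median-ratio scaling (0.79), quantile normalization (0.79), the length and GC correction (0.95) and without ZT8 replicate 2 (0.81). It was lost without ZT20 replicate 3 or 4 (limma adjusted p = 0.0544 and 0.0515) and without both (difference 1.00, limma adjusted p = 0.196).

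Sirt3, the main mitochondrial deacetylase, was at 74.8, 71.9, 73.5 and 74.3 TPM at ZT20 and 83.4, 113.6 and 87.4 TPM at ZT8. Its ZT20 values varied least of all members, with an SD of 1.72% of the mean, and all lay below ZT8. The log2 difference was -0.35 ± 0.13 (SE) and did not pass (limma adjusted p = 0.106). Under median-ratio scaling it was -0.60 and passed (limma adjusted p = 0.0381). Sirt4, the third mitochondrial sirtuin and not among the members, was at 23.0 ± 5.15 TPM (SD over n = 4) and 22.7 ± 10.7 TPM (SD over n = 3), a difference of 0.080 (limma adjusted p = 0.866). Exons of Sirt3 overlap Psmd13 and Ric8a on the opposite strand.

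**Figure D2:**
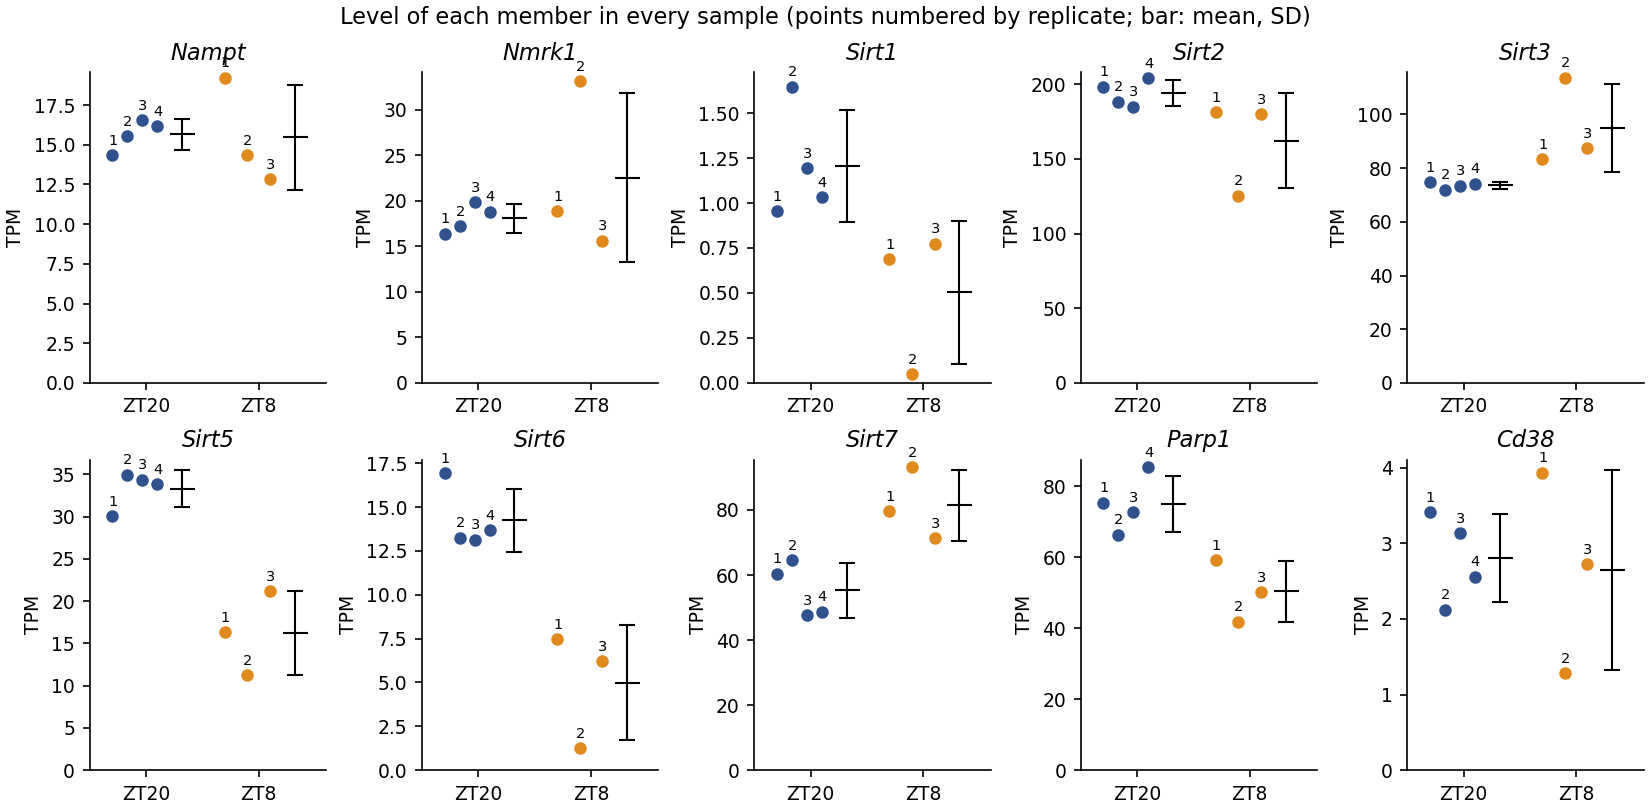
TPM of each member in every sample, with points numbered by replicate and a black bar for the group mean with its SD (n = 4 at ZT20, n = 3 at ZT8), all axes starting at 0. Sirt5, Sirt6 and Parp1 sit higher at ZT20 and Sirt7 lower, and ZT8 replicate 2 is the lowest or highest sample in 9 of the 10 panels.

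On the TPM scale the sirtuins added up to nearly the same amount in every sample while their make-up differed. The summed TPM of Sirt1 to Sirt7 was 399.3, 402.4, 381.8 and 394.9 at ZT20 and 385.5, 379.7 and 383.3 at ZT8. The near-equal sum depended on the scaling: with median-ratio scaling, an alternative added after the data were seen, it was 335.5 to 387.2 at ZT20 and 394.0 to 438.6 at ZT8. A share of the sum is not affected by dividing each sample by 1 factor, though quantile normalization can change it, and it rests on the same values as the differences above and is a description. Sirt2 held 49.1 ± 2.05% of the sum at ZT20 and 42.3 ± 8.08% at ZT8 (SD over n = 4 and 3), with overlapping ranges. Sirt3 held 17.9% to 19.3% at ZT20 and 21.6% to 29.9% at ZT8. Sirt7 held 12.3% to 16.0% at ZT20 and 18.6% to 24.5% at ZT8. In both of these the ZT8 samples were all above the ZT20 samples. Sirt5 held 7.52% to 9.002% at ZT20 and 2.95% to 5.52% at ZT8, and Sirt6 held 3.29% to 4.24% and 0.333% to 1.94%. Here the ZT20 samples were all above. Sirt1 held at most 0.409% in any sample. Within the mitochondrial pair, Sirt5 was at 0.401 to 0.486 of the Sirt3 level at ZT20 and 0.0987 to 0.242 at ZT8.

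**Figure D3:**
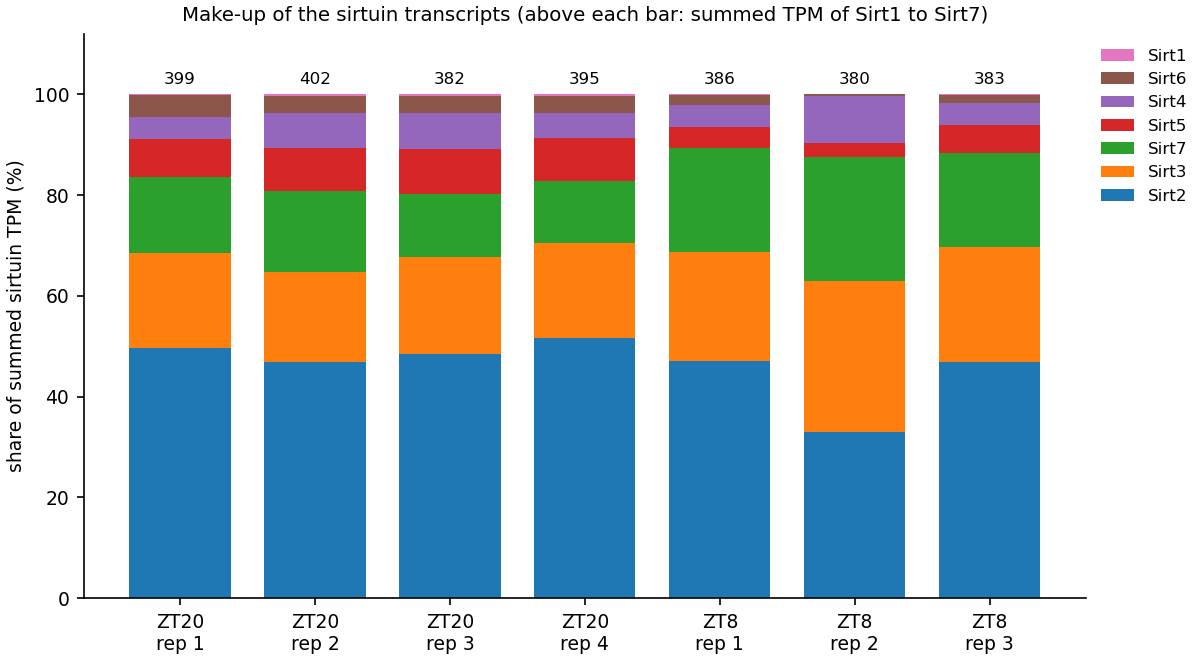
Share of each sirtuin in the summed TPM of Sirt1 to Sirt7, in percent, for every sample, with the sum above each bar. Bars are alike within ZT20; ZT8 replicate 2 has the smallest Sirt2 share, 33.0%, and the largest Sirt3 share, 29.9%.

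Among the other enzymes that consume NAD, Parp1 was abundant and higher at ZT20. It was at 75.4, 66.3, 72.7 and 85.3 TPM at ZT20 and 59.1, 41.9 and 50.2 TPM at ZT8. The groups did not overlap. The means were 74.9 ± 7.90 TPM (SD over n = 4) and 50.4 ± 8.62 TPM (SD over n = 3), and the log2 difference was 0.57 ± 0.15 (SE, limma adjusted p = 0.0378). The length and GC correction left a difference of 0.20 (limma adjusted p = 0.259) and median-ratio scaling one of 0.32 (limma adjusted p = 0.113). Quantile normalization kept the call (0.47, limma adjusted p = 0.0474), and no filter on low values lost it (limma adjusted p = 0.0755). The call of Parp1 was also lost without ZT20 replicate 1, 3 or 4 or without ZT8 replicate 2 or 3 (limma adjusted p from 0.0552 to 0.112), and without ZT20 replicates 3 and 4 the difference was 0.49 (limma adjusted p = 0.313). Parp2, its closest relative in DNA repair, was at 23.2 ± 2.29 TPM (SD over n = 4) and 23.5 ± 1.01 TPM (SD over n = 3), a difference of -0.024 (limma adjusted p = 0.917).

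Cd38, an NAD hydrolase best known from immune cells, was low in all samples. It was at 3.41, 2.12, 3.14 and 2.56 TPM at ZT20 and 3.93, 1.28 and 2.72 TPM at ZT8. The highest and the lowest value were both at ZT8, and the groups overlapped. The log2 difference was 0.12 ± 0.31 (SE, limma adjusted p = 0.808). Its sign turned under median-ratio scaling (-0.054), quantile normalization (-0.25) and without ZT8 replicate 2 (-0.18), so no direction can be given. Macrophage markers summed to 133.1 to 203.0 TPM at ZT20 and 195.1 to 457.7 TPM at ZT8, with 1 of 8 called higher and 1 lower. ZT8 replicate 1 had both the highest sum and the highest Cd38. ZT20 replicates 3 and 1 had the lowest sums, 133.1 and 154.6 TPM, and the third and second highest Cd38. Whether Cd38 followed macrophages or any other cell type was not tested. Bst1, the other gene of the Cd38 family, was below the filter at 0 to 1.11 TPM.

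In the list of further NAD consumers 3 of 10 tested genes passed, all higher at ZT20, against the same 12.8% of all tested genes. Sarm1, the NAD hydrolase that executes axon degeneration, was at 85.9, 97.6, 73.9 and 72.6 TPM at ZT20 and 45.1, 65.4 and 37.1 TPM at ZT8. The groups did not overlap, with a log2 difference of 0.76 ± 0.20 (SE, limma adjusted p = 0.0372). The tankyrases Tnks and Tnks2, which add ADP-ribose chains to telomere and Wnt-pathway proteins, had the largest differences of the called list genes. Tnks was at 9.11, 8.39, 10.8 and 10.8 TPM at ZT20 and 4.12, 3.06 and 3.53 TPM at ZT8, a log2 difference of 1.24 ± 0.20 (SE, limma adjusted p = 0.00769). Tnks2 differed by 1.02 ± 0.21 (SE, limma adjusted p = 0.0154). Both have groups that do not overlap. The call of Sarm1 was lost without any single ZT20 sample or without ZT8 replicate 1 or 3 (limma adjusted p from 0.0758 to 0.0928), and that of Tnks2 without ZT20 replicate 3 or 4 (limma adjusted p = 0.0567 and 0.0558). Under median-ratio scaling and quantile normalization the call of Sarm1 was lost (0.52 and 0.66, limma adjusted p = 0.167 and 0.084), as it was with no filter on low values (limma adjusted p = 0.0882), that of Tnks was kept, and that of Tnks2 was kept under the first and lost under the second (limma adjusted p = 0.0612).

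Of the list of NADP enzymes, transport and clearance, 0 of 9 tested genes passed by limma and 3 had an unadjusted p under 0.05. Among all 14800 tested genes, 5122 had an unadjusted p under 0.05. Nnmt, which methylates nicotinamide and so removes it from salvage, differed by -0.51 ± 0.40 (SE, limma adjusted p = 0.398). Over all 4 lists, 38 genes were listed, 27 were tested and 5 were called, all higher at ZT20, against 16.4% called among all tested genes. That one-sided split depended on the scaling: median-ratio scaling gave 2 higher and 1 lower, quantile normalization 1 higher and 2 lower, and the length and GC correction 0 higher and 1 lower. The lower calls were Adprs, which removes ADP-ribose from serines, under both scalings (-0.60 and -0.56), Nmnat1 under quantile normalization, and Parp4 with the correction (-1.17). Parg and Aox1 were called higher with array weights and in some other settings, and neither passed as reported (limma adjusted p = 0.051 and 0.0598). The median difference of the 27 tested genes as reported, 0.21, was near the 0.23 of all genes. Without ZT20 replicates 3 and 4 0 of 14687 genes passed by limma and 2378 had an unadjusted p under 0.05, and Nmnat2, Nt5e, Sarm1, Tnks and Tnks2 then differed by 0.48, 0.47, 0.92, 1.10 and 1.01.

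**Figure D4:**
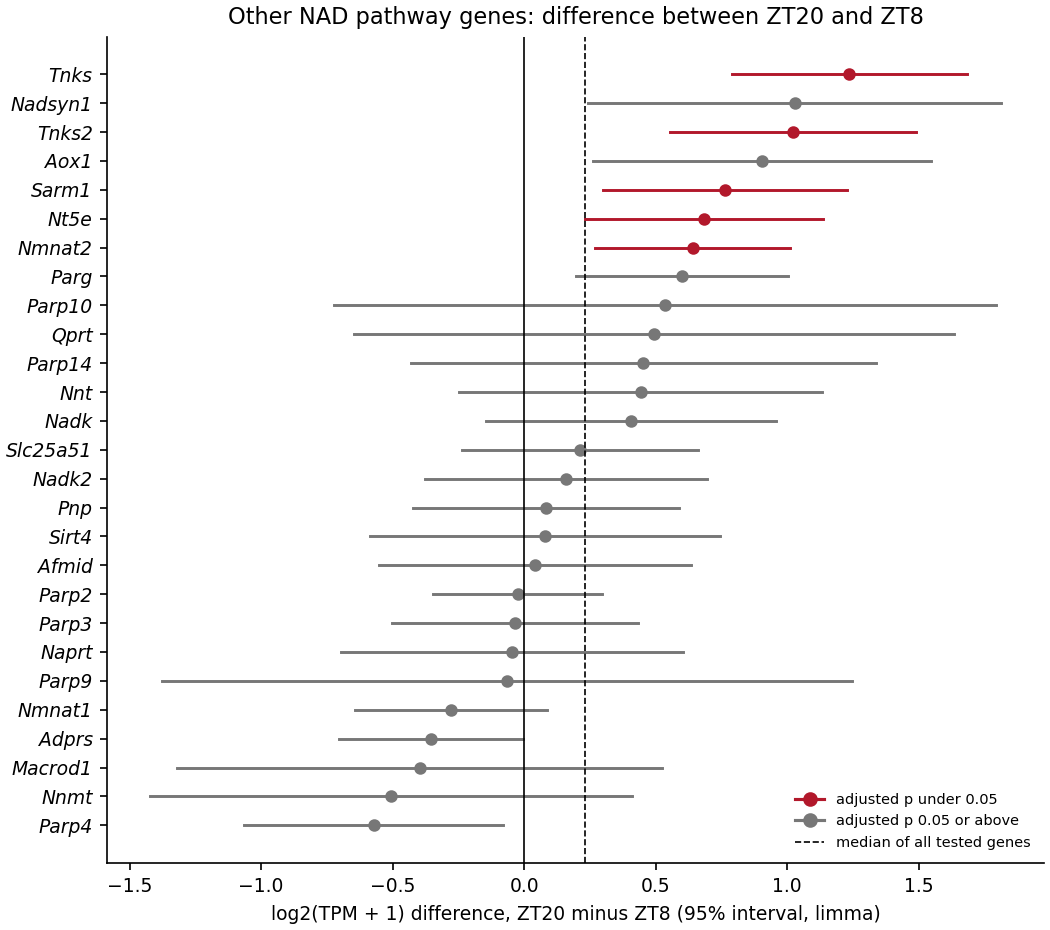
Difference in log2(TPM + 1), ZT20 minus ZT8, of the 27 tested NAD pathway genes that are not members, with 95% intervals from limma. The 5 red points passed an adjusted p-value of 0.05, all on the right; the dashed line is the median of all tested genes at 0.23.

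Differences in these libraries moved with transcript length, so the members were set beside genes of like length (longest transcript in GENCODE M21, tested genes in 10 groups of equal size). Sirt6, of 1891 nt, and Sirt5, of 2425 nt, fell into groups whose median differences were -0.017 and 0.079 and in which 3.73% and 4.82% of genes were called higher. Parp1, of 3873 nt, fell into a group with a median of 0.36 and 13.5% called higher. Sirt7, of 3274 nt, fell into a group with a median of 0.24 and 2.24% called lower. Tnks, of 9163 nt, Tnks2, of 6481 nt, Sarm1, of 4868 nt, and Nmnat2, of 4638 nt, fell into long groups with medians of 0.47 to 0.69. The longest transcripts of Sirt7 (a retained intron) and Nmnat2 (nonsense-mediated decay) are not annotated as protein coding. The lengths of their coding transcripts may therefore differ from those used here. With the dependence on length and GC content taken out of each sample, Sirt6 differed by 1.48 and Sirt5 by 0.95 and both passed (limma adjusted p = 0.0411 and 0.0193). The same correction gave 0.20 for Sarm1, 0.19 for Nmnat2, 0.34 for Nt5e, 0.54 for Tnks and 0.46 for Tnks2, and these calls were lost (limma adjusted p from 0.0925 to 0.696). Sirt7 was then at -0.88 (limma adjusted p = 0.0518).

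The order of the mean levels over all samples was Sirt2, Sirt3, Sirt7, Parp1, Sirt5, Nmrk1, Nampt, Sirt6, Cd38 and Sirt1. Sirt2 was above Sirt3, and Parp1 above Sirt5, in all 7 samples without overlap of their ranges. Sirt3 was above Sirt7 and Cd38 above Sirt1 within every one of the 7 samples, although their ranges over samples overlapped. Sirt7 and Parp1 changed places with the group: Sirt7 was the higher of the pair in 3 of 3 ZT8 samples and in 0 of 4 ZT20 samples. Sirt5 was above Nmrk1 in 4 of 4 ZT20 samples and in 1 of 3 ZT8 samples. The neighbours Nmrk1 and Nampt, Nampt and Sirt6, and Sirt6 and Cd38 each kept their order in 6 of 7 samples, with overlapping ranges.

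The spread within groups was larger at ZT8 for all members other than Sirt7. The SD was 1.72% to 25.7% of the mean at ZT20 and 13.5% to 78.6% at ZT8, widest for Sirt1 in both. ZT8 replicate 2 was the lowest or the highest of the 7 samples for 9 of the 10 members, Nampt being the exception, and for 60.3% of all tested genes. For the other samples the members' counts were 1 to 3, and the shares of all tested genes were 18.6% to 30.4%. The genes most like Sirt2 across the 7 samples were Eid2b, Rwdd4a and Wasl, with Pearson's r of log2(TPM + 1) of 0.999, 0.997 and 0.996. These are the highest of 14799 correlations, given as a description, and the points share the low ZT8 replicate 2.

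Across 19 alternative settings, Sirt5, Sirt6 and Parp1 were always higher and Sirt3 and Sirt7 always lower at ZT20, while the calls depended on the setting. The call was kept in 13 of the 19 for Sirt5, 5 for Sirt6, 5 for Sirt7 and 6 for Parp1. Sirt2 was positive throughout, from 0.027 to 0.37, and never passed. Nampt, Nmrk1 and Cd38 each took both signs.

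**Figure D5:**
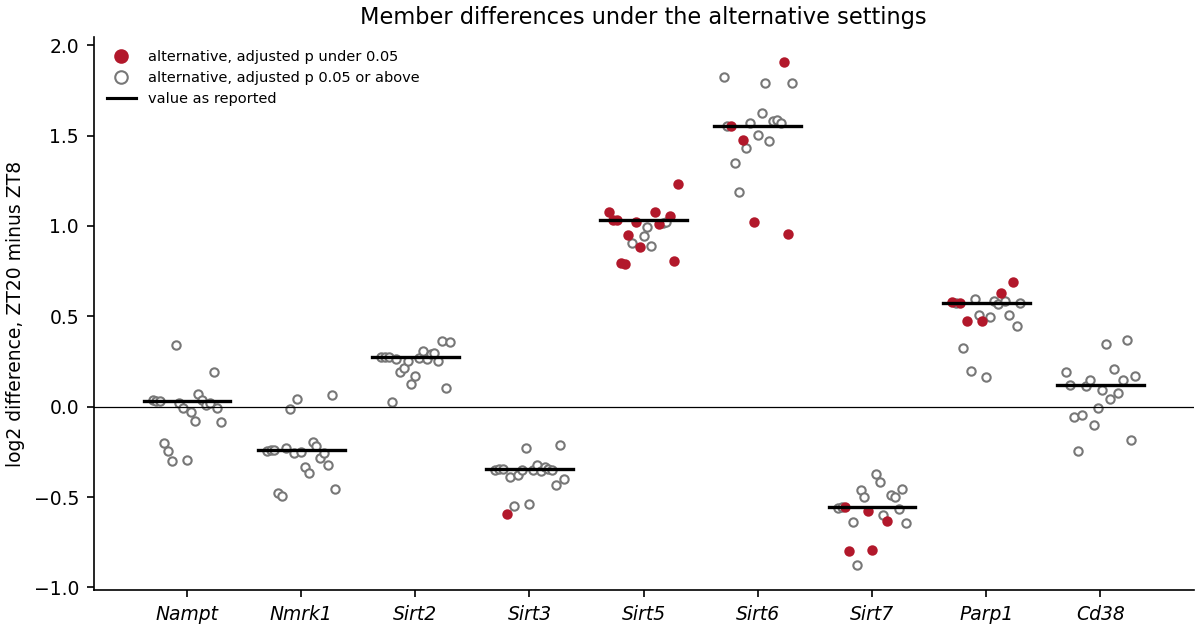
Log2 difference, ZT20 minus ZT8, of each tested member under each alternative setting (points, red where the limma adjusted p-value was under 0.05) and as reported (black line). Sirt5 keeps its call most often, in 13 of 19 settings, and Nampt and Cd38 scatter around 0.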

How the data were processed

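Dorsal root ganglion RNA of 7 mouse samples (ZT20, n = 4; ZT8, n = 3; groups from the titles) was measured by RNA sequencing. The authors deposited TPM per gene; the submitters' processing notes name GRCm39, FastQC 0.11.9, Trim Galore 0.6.6, Salmon 1.6.0 and DESeq2 1.34.0, with no role or order. Annotation release, use of strand and scaling between samples are not given in the sources used here. Each of the 7 columns was matched to a title, and 0 per-sample columns were left unused.

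The 14800 genes averaging 1 TPM or more were fitted as log2(TPM + 1) with limma 3.58.1 in R 4.3.3 (lmFit, eBayes with trend, no covariate), two-sided, Benjamini-Hochberg over all of them. A difference on this scale understates that of low genes. On simulated data for this comparison (14800 genes, 200 changed by 1.5 on the log2 scale) 62.5% of changed genes were called, 3.85% of calls were unchanged genes, and 0 genes were called when none was changed. The simulation drew independent normal noise with the same SD in both groups for each gene. In the data ZT8 replicate 2 was the lowest or highest sample for 60.3% of tested genes, so these rates may not hold here. Transcript length, GC content and exon overlap came from GENCODE M21 (GRCm38), matched by identifier for 14745 tested genes (99.6%). Promoters came from RefSeq (GRCm38.p6). No coordinates of the files' build are given.

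The members, the pathway and marker lists, the tests and the alternatives were chosen with earlier results of these data known. All members are named. Of the pathway lists, 11 genes are named whatever their result, and any other gene with a limma adjusted p under 0.05 as reported. Adprs, Parp4, Parg and Aox1 were added for calls under alternative settings, and Parp9 for a far sample. The 3 tested genes most correlated with the most abundant member are named too. Nnt occurs under 2 identifiers, and 1 was used. Plots used matplotlib 3.10.9 (Python 3.11.15).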

Additional observations from a re-analysis of the deposited data

Results flagged for a closer look

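Among the 36 tested members and pathway genes, 4 had a ZT20 sample far from the rest of its group, with a gap to its nearest neighbour that took more of the group's whole range than the 95% critical share. Chance gives about 1 in 20 groups. Only the ZT20 groups were screened in this way, so far samples at ZT8 are not listed here. ZT20 replicate 1 had 16.9 TPM of Sirt6 while the remaining ZT20 values ran from 13.1 to 13.7 TPM, a gap share of 0.851. ZT20 replicate 2 had 10.3 TPM of Nmnat1 beside 13.0 to 13.1 TPM (gap share 0.956) and 1.63 TPM of Nnmt beside 0.506 to 0.697 TPM (gap share 0.831). ZT20 replicate 3 had 4.35 TPM of Parp9, a gene named here only for this gap, beside 2.13 to 2.46 TPM (gap share 0.853).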

How the results depend on the processing

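As reported, 2433 genes, 4 members and 5 other NAD pathway genes were called. The counts for genes, members and pathway genes are given in that order, and the cause of each change was not tested. A pseudocount of 0.1 TPM gave 2 members, and no filter gave 1178, 1 and 2. Array weights gave 3899 genes. Median-ratio scaling gave 3 members (1 higher, 2 lower) and 3 pathway genes, of which 2 were among the reported 5 (1088 genes higher and 1254 lower at ZT20). Quantile normalization gave 2 members (2 higher, 0 lower) and 3 pathway genes, 1 of them reported (1023 higher, 814 lower). The length and GC correction gave 1304, 2 and 1, with 0 of the reported pathway calls (528 higher, 776 lower), against 1899 higher and 534 lower as reported. A covariate of neuronal minus other markers gave 36, 0 and 0, with 2538, 2 and 5 at an unadjusted p under 0.05 by limma; the called pathway genes then differed by 0.54 (Nmnat2) to 1.30 (Tnks), with larger errors. Without ZT20 replicates 3 and 4, and without ZT20 replicates 2, 3 and 4 (1 sample left, assumed to vary like the ZT8 group), limma called 0, 0 and 0, at 2378 and 1155 genes with an unadjusted p under 0.05. Leaving out a single replicate gave 723 to 3047 genes, 0 to 3 members and 1 to 5 pathway genes.

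Whether the replicate numbers pair the samples is not given and cannot be told from so few pairs. Deviations from the group means correlated at -0.0141, 0.153 and 0.083 for the same-numbered pairs. Differently numbered pairs ran from -0.168 to 0.15. The replicate block, which sets aside ZT20 replicate 4 since its number has no partner, gave 1174, 1 and 2, and together with the length and GC correction, a combination added after the data were seen, 520, 1 and 1.

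Signs turned as follows. Nampt, at 0.034, was at -0.20 under median-ratio scaling, -0.24 under quantile normalization, -0.30 with the length and GC correction, -0.30 with block and correction, -0.0067 with array weights, -0.081 and -0.028 without ZT20 replicates 2, 3 and 4 and without 3 and 4, and -0.082 to 0.19 without single replicates. Cd38, at 0.12, was at -0.054, -0.25, -0.043, -0.0052 and -0.10 in the first 5 of these settings and at -0.18 to 0.37 without single replicates. Nmrk1, at -0.24, was at 0.042 with array weights and at -0.45 to 0.065 without single replicates. Without Sirt4 in the sum, the ZT20 shares of Sirt2 and Sirt3 were 52.2% and 19.8%. Without read depth, counting error cannot be given for any value, which weighs most on Sirt1, Cd38 and the genes below the filter.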
